A study of Mus musculus with 12 samples.

Results

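The liver breaks down most amino acids and turns the ammonia they release into urea. Each amino acid has its own chain of enzymes, which ends in intermediates of the tricarboxylic acid cycle, in ketone bodies or in glucose, and many of the chains begin by passing the amino group to α-ketoglutarate. IDH2, the mitochondrial NADP-dependent isocitrate dehydrogenase, is one of the enzymes that make α-ketoglutarate in mitochondria. The genes described here are 47 genes of the urea cycle and of amino acid catabolism, named one by one and found by their names among the 36228 rows of the table of read counts. They fall into 8 groups by amino acid. The groups are the urea cycle (6 genes), glutamine, ornithine and proline (6), tyrosine (4), tryptophan (6), histidine (4), serine, glycine and glyoxylate (6), methionine and cysteine (7), and branched chain amino acids with propionyl-CoA (8).

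Total RNA of the liver was sequenced from 5 IDH2 KO mice, 3 female and 2 male, and from 7 WT littermates, 4 female and 3 male. IDH2 KO mice carry Idh2-/- in every tissue from the germ line on, so a change in the liver need not begin in liver cells. All the mice were C57BL/6N and 8 to 10 weeks old, with no other allele, diet or agent named in the labels, and each mouse gave 1 library. Levels are given as CPM, the reads of a gene scaled to a common library size with TMM factors.

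*Idh2*, on chromosome 7 from 80094846 to 80115392 of GRCm38, was near absent in the IDH2 KO libraries, with 0.119 ± 0.112 CPM (SD, n = 5) against 72.8 ± 24.0 CPM in WT libraries (SD, n = 7), a log2 fold change of −9.12 (SE 0.51, adjusted p = 9.61e-08 in edgeR's quasi-likelihood test (Benjamini-Hochberg)). Between 15323300 and 25019649 reads were counted per library, of which the 47 genes took 1.25% to 2.51%. Transcripts of the mitochondrial genome took 29.3% of reads in IDH2 KO female 3, 22.5% in WT female 2 and 25.9% in WT male 2, against 39.7% to 50.1% elsewhere. IDH2 KO female 3 stood apart from every other library. Reads fell in 8531 genes there, while the remaining IDH2 KO libraries covered 11303 to 12101 genes and WT libraries 10482 to 12873. Its median correlation with the other libraries was 0.865, against 0.944 to 0.963 for all others. Where leaving it out moved the log2 fold change of a tested gene of the 47 between genotypes by over 1.5 times or turned its sign, the value without it is given beside the first. The summed level of 8 hepatocyte markers was 99211 to 314127 CPM in IDH2 KO (median 208061) and 139671 to 259819 CPM in WT libraries (median 182900). Its highest value was that of IDH2 KO female 3, and both IDH2 KO males lay below every WT library. The sum of 5 erythroid markers was 33.5 to 306 CPM in IDH2 KO (median 215) and 16.5 to 140.0 CPM in WT libraries (median 23.4). Of these, 4 had log2 fold changes above 0 and 1, *Alas2*, below (−0.92). All markers of both lists were detected. The part of these differences in any result below was not tested.

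Of the 47 genes, 39 had enough reads to be tested, 3 had few reads and 5 were listed at 0 in all 12 libraries. The 5 at 0 were *Cps1* and *Asl* of the urea cycle (carbamoyl-phosphate synthase and argininosuccinate lyase), *Mat1a* and *Cbs* of methionine breakdown (the liver form of methionine adenosyltransferase, and cystathionine β-synthase) and *Sdsl*, a relative of serine dehydratase. Since *Cps1* and *Mat1a* encode abundant enzymes of the liver, a 0 in this table is not read as absence of the transcript, and no fold change is given. How reads that fit several transcripts were counted is not given in the sources used here. In the RefSeq table all 5 have more than 1 transcript, as have the 3 genes of few reads. Each of the 15 genes with 1 RefSeq transcript was tested and held 2413 to 946108 reads over the 12 libraries, whereas of the 22 genes with 2 or 3 transcripts 16 were tested and 4 had no read, and of the 10 genes with 4 or more, 8 were tested and 1 had no read. Over all protein-coding genes with 1, 2 or 3, and 4 or more transcripts, the share with no read was 46.7%, 48.0% and 50.01%. Under 100 reads, counting those with none, were 4372 of 7052, 3908 of 5615 and 6264 of 7720 genes. The medians were 3, 1 and 0 reads. Among the 47 genes, 0 of 15, 5 of 22 and 2 of 10 had under 100 reads. The part of the transcript number in the missing reads was not tested.

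**Figure D1:**
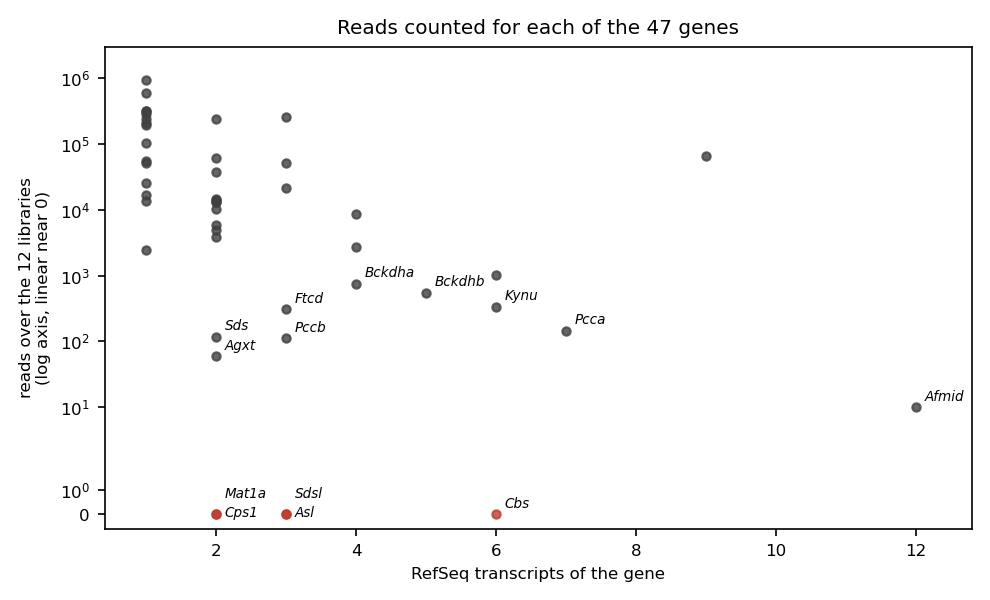
Reads counted over the 12 libraries (vertical, log axis that is linear near 0) for each of the 47 genes against the number of RefSeq transcripts of the gene (horizontal). The 15 genes with 1 transcript lie between 2413 and 946108 reads, and the 5 genes at 0, in red, have 2 to 6 transcripts.

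The 3 genes of few reads were *Afmid*, kynurenine formamidase of tryptophan breakdown, *Sds*, serine dehydratase, and *Agxt*, which transaminates glyoxylate to glycine. *Afmid* had 9 reads in IDH2 KO and 1 read in WT libraries, and relative to the total reads the ratio was 13.5 with an exact 95% interval of 1.87 to 590.0. *Sds* had 35 reads in IDH2 KO and 83 in WT libraries (ratio 0.631, 0.412 to 0.947), and *Agxt* had 20 and 39 (ratio 0.767, 0.424 to 1.35). These intervals cover counting error only, and such counts cannot show a difference between mice.

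Levels of different genes were compared per kilobase of transcript, and only among the 15 genes with 1 RefSeq transcript. *Hpd*, hydroxyphenylpyruvate dioxygenase of tyrosine breakdown, stood first with a mean of 2924 CPM per kilobase over the 12 libraries. It was followed by *Bhmt*, which remethylates homocysteine with betaine (990.3), by the urea cycle genes *Arg1*, arginase (879), and *Ass1*, argininosuccinate synthase (775), and by *Fah*, the last enzyme of tyrosine breakdown (642). Lowest were *Nags* (28.2), which makes the activator of carbamoyl-phosphate synthase, and *Acmsd* (3.60), which steers tryptophan carbon away from NAD. The spread between WT mice, as SD over mean of the CPM, was 8.99% for *Cdo1*, cysteine dioxygenase, 10.2% for *Gcsh* of the glycine cleavage system, 47.01% for *Tdo2*, tryptophan dioxygenase, and 88.2% for the scarcely read *Pcca*. The sexes are pooled in these values, and for *Tdo2* all WT males (1349.5 to 2162 CPM) lay above all WT females (617 to 984 CPM).

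The main comparison asked whether loss of IDH2 changed the level of these genes. It did so for none of them at the threshold used. With sex in the model and an adjusted p under 0.05, 0 of the 39 tested genes were called in edgeR's quasi-likelihood test, where 29 of all 7618 genes tested (0.381%) were called, and DESeq2 and limma also called 0 of the 39. At an unadjusted p under 0.05, 2 of the 39 passed, both lower in IDH2 KO, where 6.71% of all genes tested passed. The log2 fold changes of the 39 genes ran between −1.19 and 0.87, 14 above 0 and 25 below, with a median of −0.05, while the median of all genes tested was −0.005. For 26 of the 39 genes the 95% interval lay wholly within a 2-fold change in either direction, as it did for 3125 of the 7618 genes. In libraries of whole tissue, fewer hepatocytes and less RNA per hepatocyte cannot be told apart. None of the 39 genes had all IDH2 KO libraries on the same side of every WT library of their own sex, which 1.43% of all genes tested had.

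**Figure D2:**
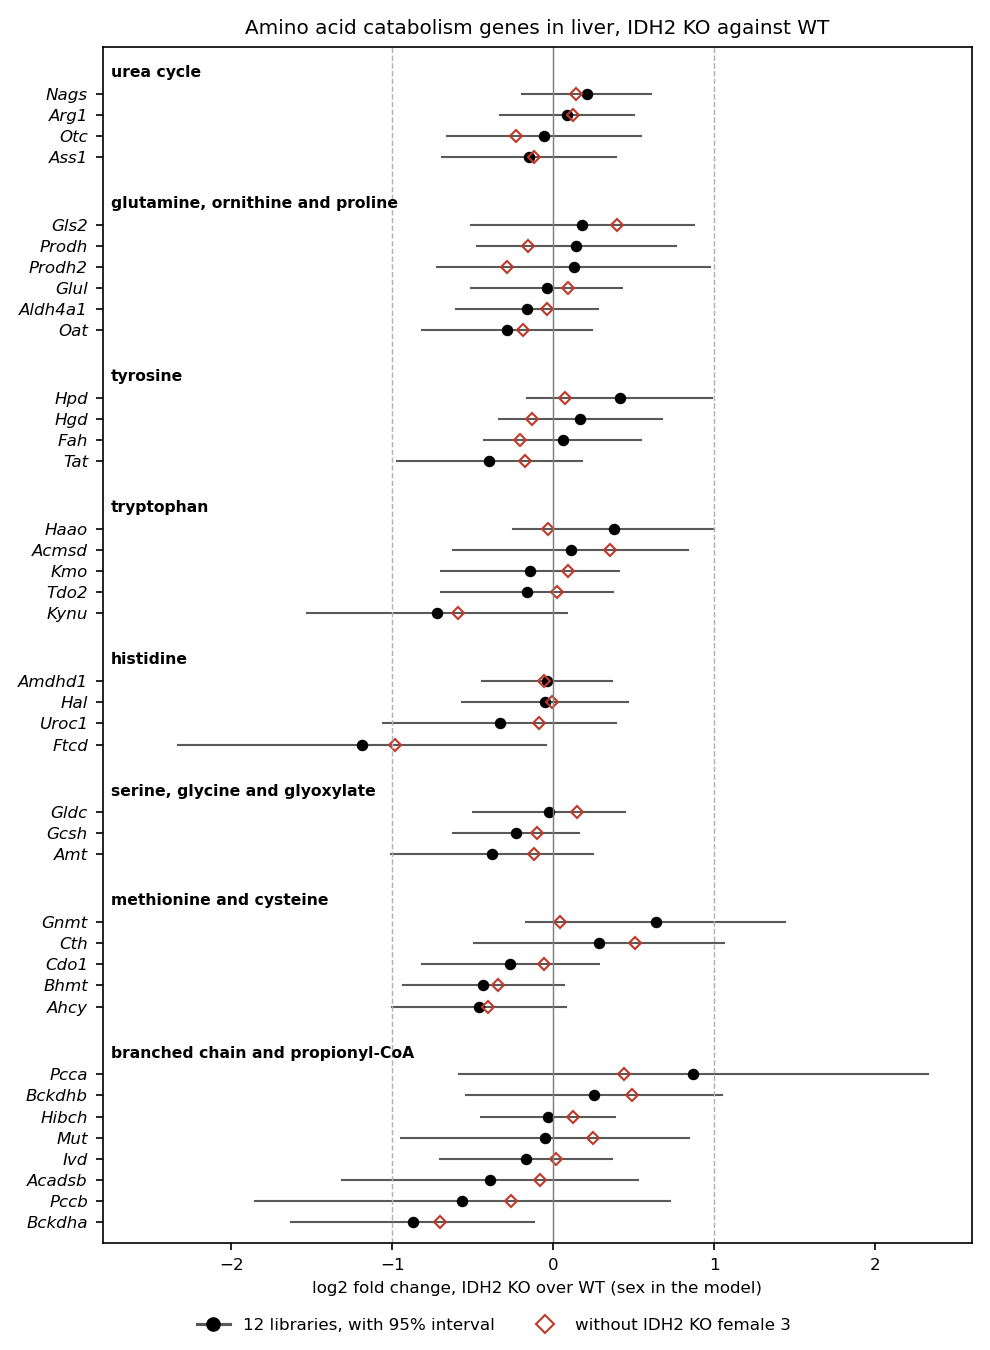
Log2 fold change of IDH2 KO over WT (horizontal) for the 39 tested genes by amino acid group, with sex in the model. Filled circles with bars are the estimates and 95% intervals over 12 libraries, open diamonds are the estimates without IDH2 KO female 3, and the dashed lines mark a 2-fold change. All bars but those of *Ftcd* and *Bckdha* cross 0.

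The urea cycle genes showed no change that passed the test, and the intervals of all 4 tested members lay within a 2-fold change. *Nags* had 57.6, 56.1 and 75.4 CPM in IDH2 KO females and 69.6 and 51.7 CPM in IDH2 KO males, against 45.2, 61.5, 57.2 and 50.8 CPM in WT females and 67.2, 40.9 and 53.1 CPM in WT males. The genotypes overlapped in both sexes, and the log2 fold change was 0.21 (SE 0.19). *Ass1* had 1652, 1470.4 and 1254 CPM in IDH2 KO females and 1212 and 673 CPM in IDH2 KO males, against 898, 858, 1887 and 1750.4 CPM in WT females and 1561, 1278 and 1274 CPM in WT males. Both males lay below every WT male, while the females lay within the range of the WT females, and the log2 fold change was −0.15 (SE 0.25). *Arg1* averaged 1347 ± 423 CPM in IDH2 KO (SD, n = 5) and 1264 ± 229 CPM in WT libraries (SD, n = 7), and *Otc*, ornithine transcarbamylase on the X chromosome, averaged 19.2 ± 5.07 and 20.2 ± 7.91 CPM in IDH2 KO and WT libraries. The log2 fold changes of *Arg1* and *Otc* were 0.08 and −0.06, and 0.12 and −0.23 without IDH2 KO female 3. The 4 tested members had a median log2 fold change of 0.01, and 0.0019 without that library.

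Genes of glutamine, ornithine and proline lay as close together, with 6 of 6 tested, 6 of 6 intervals within a 2-fold change and a median log2 fold change of 0.04, or −0.10 without IDH2 KO female 3. *Oat*, ornithine aminotransferase, a gene of the pericentral zone of the liver lobule, had 991, 887 and 546 CPM in IDH2 KO females and 753 and 506 CPM in IDH2 KO males, against 585, 748, 949 and 1087 CPM in WT females and 718, 1390.0 and 816 CPM in WT males. IDH2 KO libraries overlapped WT libraries in both sexes (log2 fold change −0.29, SE 0.25, and −0.19 without IDH2 KO female 3). *Glul*, glutamine synthetase, which clears the ammonia left at the pericentral end, averaged 784 ± 282 CPM in IDH2 KO (SD, n = 5) and 789 ± 168 CPM in WT libraries (SD, n = 7), with a log2 fold change of −0.04, or 0.09 without IDH2 KO female 3. The other 4 members were *Gls2*, the liver glutaminase, *Aldh4a1*, shared by proline and ornithine breakdown, and the proline and hydroxyproline dehydrogenases *Prodh* and *Prodh2*, with log2 fold changes of 0.18, −0.16, 0.14 and 0.13. Without IDH2 KO female 3 these were 0.40, −0.04, −0.16 and −0.29.

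Of the tyrosine genes, all 4 were tested, with a median log2 fold change of 0.11, or −0.15 without IDH2 KO female 3. *Hpd* had 4646, 4318 and 10529.9 CPM in IDH2 KO females and 3188 and 2301 CPM in IDH2 KO males, against 3501, 2827, 4142 and 4615 CPM in WT females and 3372, 2552 and 3266 CPM in WT males. A single library, IDH2 KO female 3, lay far above all the others, and IDH2 KO males overlapped WT males. Its log2 fold change was 0.41 (SE 0.27) with that library and 0.07 (SE 0.18) without it. *Hgd*, homogentisate dioxygenase, and *Fah* showed the same high value in that library (444 and 2021 CPM), and *Tat*, tyrosine aminotransferase at the head of the pathway, was lowest there (289 CPM). Their log2 fold changes were 0.17, 0.06 and −0.40, and −0.13, −0.21 and −0.18 without it.

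The tryptophan genes that open the kynurenine route did not pass the test either. *Tdo2* had 801, 1137 and 357 CPM in IDH2 KO females and 1614 and 1458 CPM in IDH2 KO males, against 984, 617, 871 and 848 CPM in WT females and 1349.5, 2162 and 1923 CPM in WT males. Males lay above females in each genotype, and the log2 fold change between genotypes was −0.17 (SE 0.25), or 0.02 without IDH2 KO female 3. *Kynu*, kynureninase, had 0.875, 1.03 and 0.444 CPM in IDH2 KO females and 0.984 and 1.5 CPM in IDH2 KO males, against 1.13, 0.950, 2.17 and 0.650 CPM in WT females and 1.84, 2.90 and 2.00 CPM in WT males. Both IDH2 KO males lay below all 3 WT males, the females overlapped, and the log2 fold change was −0.72 (SE 0.38, 95% interval −1.53 to 0.08) on 96 reads in IDH2 KO and 240 reads in WT libraries. *Kmo*, kynurenine monooxygenase, *Haao*, hydroxyanthranilate dioxygenase, and *Acmsd* had log2 fold changes of −0.15, 0.38 and 0.11, and without IDH2 KO female 3 of 0.09, −0.03 and 0.35. The 5 tested members had a median of −0.15, or 0.02 without that library.

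Among the histidine genes all 4 log2 fold changes were negative, with a median of −0.19, or −0.07 without IDH2 KO female 3. *Ftcd*, the last enzyme of the histidine pathway, which hands its formimino group to folate, lies on chromosome 10 from 76575648 to 76590338 and had the lowest log2 fold change of the 39 genes. It had 0.459, 0.855 and 0.148 CPM in IDH2 KO females and 0.581 and 1.40 CPM in IDH2 KO males, against 1.49, 0.387, 1.58 and 1.11 CPM in WT females and 0.830, 4.48 and 1.40 CPM in WT males. The genotypes overlapped in females, where WT female 2 was low, and in males. The log2 fold change was −1.19 (SE 0.54, 95% interval −2.33 to −0.04, unadjusted p = 0.0452 and adjusted p = 0.730 in edgeR's quasi-likelihood test (Benjamini-Hochberg)). It rested on 68 reads in IDH2 KO and 242 in WT libraries, and was −0.80 with WT male 2 left out. *Hal*, histidine ammonia-lyase at the head of the pathway, had 619, 538 and 462 CPM in IDH2 KO females and 359.6 and 198 CPM in IDH2 KO males, against 391, 309, 652 and 638 CPM in WT females and 449, 298 and 283 CPM in WT males. Its females and males each overlapped between genotypes (log2 fold change −0.05, SE 0.24, and −0.01 without IDH2 KO female 3). The middle enzymes *Uroc1*, urocanase, and *Amdhd1* had log2 fold changes of −0.33 and −0.04, and without IDH2 KO female 3 of −0.09 and −0.06.

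The glycine cleavage system, the mitochondrial complex that splits glycine, gave the 3 tested members of the serine, glycine and glyoxylate group. *Gldc*, its decarboxylase, had 337, 278 and 124 CPM in IDH2 KO females and 208 and 155 CPM in IDH2 KO males, against 219, 209.8, 253 and 264 CPM in WT females and 219, 189 and 195 CPM in WT males. IDH2 KO females 1 and 2 lay above all WT females and IDH2 KO female 3 below them, and the means were 220.4 and 221 CPM in IDH2 KO and WT libraries (log2 fold change −0.03, SE 0.22, and 0.15 without IDH2 KO female 3). *Amt*, its aminomethyltransferase, had 23.6, 29.0 and 6.14 CPM in IDH2 KO females and 20.7 and 18.9 CPM in IDH2 KO males, against 29.8, 30.7, 30.3 and 25.4 CPM in WT females and 24.8, 21.9 and 18.0 CPM in WT males. IDH2 KO female 3 was the lowest library, and the log2 fold change was −0.38 with it and −0.12 without it. *Gcsh*, which carries the intermediate between the subunits, had a log2 fold change of −0.23 (SE 0.18), or −0.10 without that library. The median of the 3 was −0.23, and −0.10 without it.

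Methionine and cysteine genes had 5 tested members and a median log2 fold change of −0.27, or −0.06 without IDH2 KO female 3. *Bhmt* had 1902, 3274 and 1587 CPM in IDH2 KO females and 1948 and 1543 CPM in IDH2 KO males, against 2565, 2288, 3442 and 2183 CPM in WT females and 2713, 3868 and 2276 CPM in WT males. In 4 of the 5 IDH2 KO libraries it lay below every WT library, and IDH2 KO female 2 lay within the WT range. The log2 fold change was −0.43 (SE 0.23, 95% interval −0.94 to 0.07, adjusted p = 0.773 in edgeR's quasi-likelihood test (Benjamini-Hochberg)). *Ahcy*, which splits S-adenosylhomocysteine, averaged 81.1 ± 14.3 CPM in IDH2 KO (SD, n = 5) and 113 ± 49.3 CPM in WT libraries (SD, n = 7). The WT mean was drawn up by WT female 2 and WT male 2, with 157 and 205 CPM, while the other 5 WT libraries lay between 70.4 and 101 CPM and all IDH2 KO libraries between 64.7 and 98.2 CPM. Those are also the 2 WT libraries with the low mitochondrial share, whose part was not tested. *Gnmt*, which uses up excess S-adenosylmethionine, had a log2 fold change of 0.64 (SE 0.38) with IDH2 KO female 3 (3665 CPM) and 0.04 without it. *Cth*, cystathionase, and *Cdo1* had log2 fold changes of 0.28 and −0.27, and without that library of 0.51 and −0.06.

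All 8 genes of branched chain amino acids and propionyl-CoA were tested, with a median log2 fold change of −0.11, or 0.07 without IDH2 KO female 3, and the widest range of any group, −0.87 to 0.87. *Bckdha*, a subunit of the branched chain ketoacid dehydrogenase that commits these amino acids to breakdown, lies on chromosome 7 from 25629946 to 25658981 and had the smallest p of the 39 genes. It had 3.21, 1.99 and 0.961 CPM in IDH2 KO females and 1.70 and 2.23 CPM in IDH2 KO males, against 4.99, 1.90, 4.09 and 2.46 CPM in WT females and 3.56, 6.09 and 3.34 CPM in WT males. Both IDH2 KO males lay below all 3 WT males, and the females overlapped through WT female 2 and WT female 4. The log2 fold change was −0.87 (SE 0.35, 95% interval −1.63 to −0.12, unadjusted p = 0.0288 and adjusted p = 0.669 in edgeR's quasi-likelihood test (Benjamini-Hochberg)), on 206 reads in IDH2 KO and 548 in WT libraries. Its partner subunit *Bckdhb* had a log2 fold change of 0.25 (SE 0.37), or 0.49 without IDH2 KO female 3, so the estimates for the subunits had opposite signs. *Hibch*, of valine breakdown, had 67.7, 75.8 and 37.4 CPM in IDH2 KO females and 75.0 and 78.3 CPM in IDH2 KO males, against 59.8, 64.3, 70.1 and 65.9 CPM in WT females and 59.9, 84.5 and 73.4 CPM in WT males. Apart from IDH2 KO female 3 its libraries overlapped (log2 fold change −0.03, SE 0.20, and 0.12 without that library). *Ivd* and *Acadsb*, dehydrogenases of leucine and isoleucine, and *Mut*, methylmalonyl-CoA mutase, had log2 fold changes of −0.17, −0.39 and −0.05, and without it of 0.02, −0.08 and 0.24. The propionyl-CoA carboxylase subunits *Pcca* and *Pccb* held 146 and 113 reads in all, and had log2 fold changes of 0.87 (SE 0.68) and −0.56 (SE 0.60), and without it of 0.44 and −0.26.

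**Figure D3:**
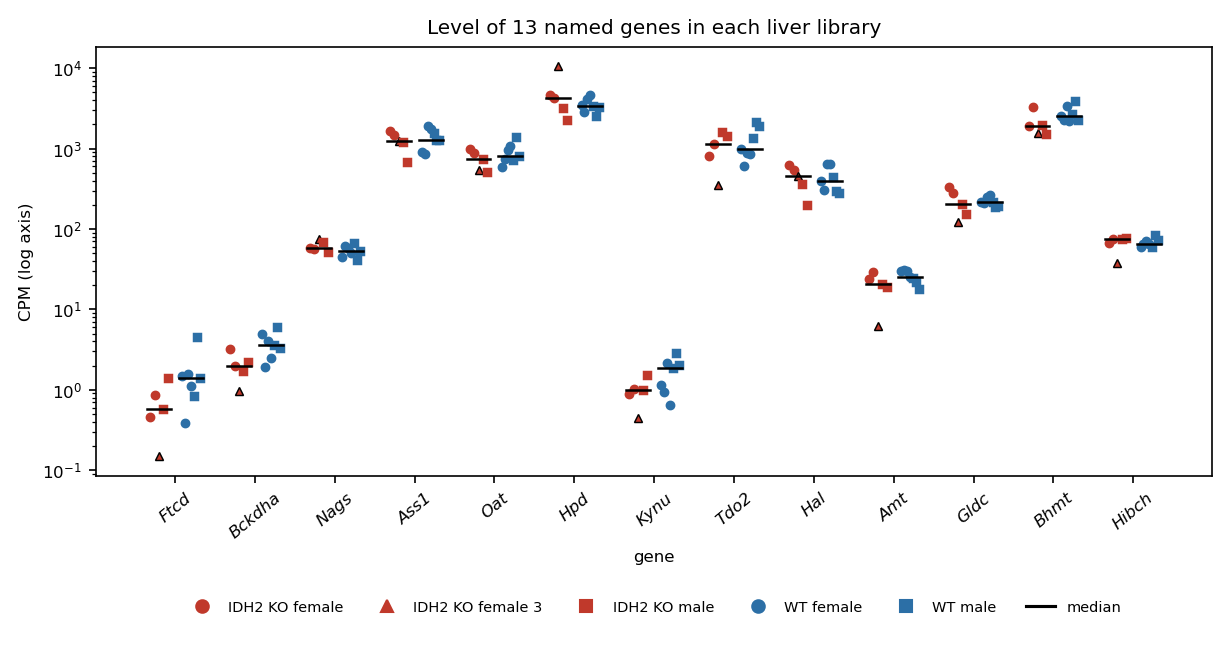
Level in each library (CPM, vertical, log axis) of the 13 genes named by rule, IDH2 KO in red on the left and WT in blue on the right of each gene. Circles are females, squares males, the outlined triangle is IDH2 KO female 3, and lines are medians. The genotypes overlap for every gene, and the triangle lies at the edge of the IDH2 KO libraries for most, above all other libraries for *Hpd* (10529.9 CPM) and below them for *Tdo2* (357 CPM).

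Leaving out IDH2 KO female 3 turned the sign of 12 of the 39 estimates, and leaving out any other library that of at most 5. Against the mean of the WT libraries of its sex, on log2 of CPM plus 0.5, 22 of the 39 genes deviated in it by over 1, of which 7 were higher and 15 lower. That is 56.4% of them, beside 44.98% over the 5829 tested genes with an annotated transcript (769 higher and 1853 lower). The other IDH2 KO libraries had 0, 0, 2 and 1 such genes, and the WT libraries at most 1. Each WT library is part of the mean it is set against, which makes its deviations smaller by construction. Highest were *Gnmt* (2.15), *Haao* (1.54) and *Hpd* (1.51), and lowest *Acadsb* (−3.84), *Mut* (−3.25) and *Amt* (−2.15), at levels of 3.40, 4.59 and 6.14 CPM. Above the WT mean, by any amount, were 2 of 4 urea cycle, 2 of 6 glutamine, ornithine and proline, 3 of 4 tyrosine, 1 of 5 tryptophan, 1 of 4 histidine, 0 of 3 serine, glycine and glyoxylate, 1 of 5 methionine and cysteine, and 1 of 8 branched chain genes. The same 5829 genes were split at their median GC content. The median deviation in this library was 0.09 for genes of high and −0.73 for genes of low GC content. Split at the median transcript length, it was 0.14 for short and −0.85 for long genes. Among the 39 genes these medians were −0.67 for the 19 genes of high and −0.79 for the 20 genes of low GC content, and by length −0.69 for short and −0.80 for long genes. Without this library, 0 of 40 genes were called, 1 (*Bckdha*) had an unadjusted p under 0.05, the median log2 fold change was −0.06, the estimates ran between −0.98 and 0.51, and the intervals of 32 of 40 genes lay within a 2-fold change. The median SE was 0.21 without it and 0.27 with it.

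**Figure D4:**
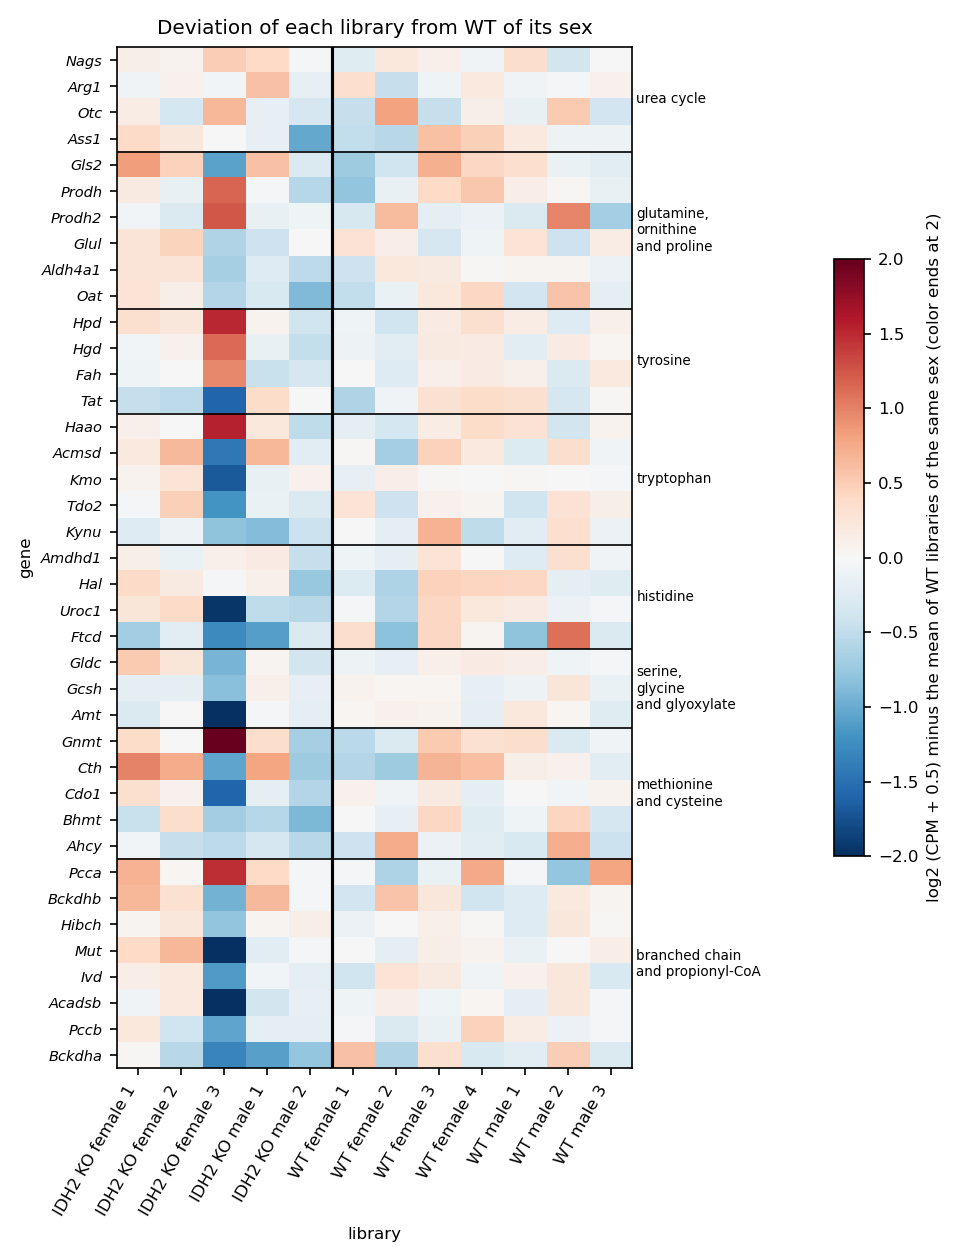
Deviation of each library (columns) for the 39 genes (rows, by amino acid group), as log2 of CPM plus 0.5 minus the mean of the WT libraries of the same sex, with red above and blue below and the color ending at 2. IDH2 KO libraries are on the left of the thick line, and IDH2 KO female 3 holds 22 of the deviations over 1. WT libraries are part of the mean they are set against.

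Other genes of the same pathways were read from a list of 95, of which 93 were in the table, 17 had no read and 64 were tested. None was called in IDH2 KO against WT, 26 estimates were above 0 and 38 below, and the median log2 fold change was −0.07. At an unadjusted p under 0.05, 3 of the 64 were lower in IDH2 KO and 0 higher, where 6.71% of all genes tested passed in either direction. These were *Gcat*, of threonine breakdown (log2 fold change −1.06, SE 0.41), *Aspg*, an asparaginase (−1.69, SE 0.72), and *Qprt*, which turns quinolinate into the precursor of NAD (−0.41, SE 0.18). *Gcat* was highest in WT female 2 and WT male 2 (9.29 and 12.99 CPM), the WT libraries of low mitochondrial share, whose part was not tested. Other WT libraries had 3.39 to 4.14 CPM, IDH2 KO females 2.56 to 4.29 CPM, and IDH2 KO males 1.61 and 2.02 CPM. For *Aspg*, IDH2 KO female 1 (1.13 CPM) lay within the WT range of 0.296 to 2.86 CPM. The other IDH2 KO libraries had at most 0.259 CPM. *Qprt* had 93.8, 83.5 and 83.4 CPM in IDH2 KO females and 90.0 and 74.9 CPM in IDH2 KO males, against 86.0, 115, 120.1 and 101 CPM in WT females and 126, 149 and 98.6 CPM in WT males. Only WT female 1 lay within the range of the IDH2 KO libraries. Of 16 regulators of these genes, such as transcription factors and sirtuins, 8 were tested and none was called, and *Nr3c1*, the glucocorticoid receptor, *Atf4* and *Sirt3* were listed at 0 in all libraries. *Cebpa*, a transcription factor of hepatocytes that drives several urea cycle genes, had a log2 fold change of −1.59 (SE 0.61, adjusted p = 0.625 in edgeR's quasi-likelihood test (Benjamini-Hochberg)), on 35 reads in IDH2 KO and 158 reads in WT libraries.

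Within each sex the comparison also called none of the 39 genes, in females (0.184% of all genes tested) or in males (0.105%), and DESeq2 called 0 in both. In females 3 genes had an unadjusted p under 0.05, where 5.26% of all genes did. *Hpd* and *Gnmt* were higher and *Tat* lower, with log2 fold changes of 0.79, 1.10 and −0.82. Without IDH2 KO female 3 these were 0.26, 0.14 and −0.53, and all of them missed an unadjusted p of 0.05. *Mut* then passed it, with a log2 fold change of 0.55 and an adjusted p of 0.588 in edgeR's quasi-likelihood test. In males 0 of 39 genes had an unadjusted p under 0.05 (3.98% of all genes), and 30 of the 39 estimates were below 0 with a median of −0.22, beside −0.02 over all genes tested, from 2 IDH2 KO livers. Of the 64 further pathway genes tested, 52 were also below 0 in males, with a median of −0.24. Of the 8 hepatocyte markers 6 were, with a median of −0.49, and the part of hepatocyte content in these shifts was not tested. For the interaction of genotype and sex, 0 of 39 genes were called by edgeR or DESeq2 (0% of all genes tested), and 0 had an unadjusted p under 0.05 (2.89%).

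The sexes were also compared, first in WT livers. In male against female WT livers 0 of 39 genes were called (0.748% of all genes tested) and 1, *Tdo2*, had an unadjusted p under 0.05 (5.83%), with a log2 fold change of 1.13 (SE 0.34) and an adjusted p of 0.298 in edgeR's quasi-likelihood test (Benjamini-Hochberg). All WT males lay above all WT females, and both IDH2 KO males, with 1614 and 1458 CPM, lay above the 3 IDH2 KO females, with 801, 1137 and 357 CPM. The sex term over both genotypes was therefore read after these values were seen, so it describes the same libraries again. There *Tdo2*, on chromosome 3 from 81957090 to 81976202, was the only one of the 39 genes called (1.98% of all genes tested), with a log2 fold change of 1.08 (SE 0.25, 95% interval 0.54 to 1.61, adjusted p = 0.0363 in edgeR's quasi-likelihood test (Benjamini-Hochberg)). Its direction held with every library left out, with log2 fold changes between 0.95 and 1.23, but the adjusted p ran between 0.00378 and 0.109 and was above 0.05 for 9 of the 12 libraries left out.

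By an unadjusted p under 0.05, 3 of the 39 genes were higher and 4 lower in males over both genotypes, where 12.2% of all genes passed. Besides *Tdo2*, *Tat* had 1613 and 1249.7 CPM in IDH2 KO males against 631, 603 and 289 CPM in IDH2 KO females, and 1557, 992 and 1269 CPM in WT males against 573, 822, 1072 and 1112 CPM in WT females. IDH2 KO males lay above IDH2 KO females, while WT male 2 overlapped the WT females (log2 fold change 0.93, SE 0.27, adjusted p = 0.114 in the same test). *Kynu* was the third gene higher in males (0.79, SE 0.37). Lower in males were the histidine genes *Hal* (−0.70, SE 0.24) and *Amdhd1* (−0.53, SE 0.19) and the tyrosine genes *Hpd* (−0.67, SE 0.27) and *Fah* (−0.53, SE 0.23). In WT livers alone these 4 were −0.53, −0.46, −0.30 and −0.22, with intervals that all crossed 0. Without IDH2 KO female 3 the sex term over both genotypes gave −0.73, −0.51, −0.45 and −0.35. *Kynu* then missed the unadjusted threshold (0.71, unadjusted p = 0.0591 in edgeR's quasi-likelihood test). Newly past it were *Kmo* and *Acadsb*, higher in males, and *Glul*, *Uroc1*, *Amt* and *Gldc*, lower in males, all with an adjusted p above 0.05. Of the 64 further pathway genes tested, 1 was called in the sex term over both genotypes, where 1.98% of all genes tested were called. *Hao1*, the peroxisomal glycolate oxidase that makes glyoxylate, had 232 and 258 CPM in IDH2 KO males against 111, 166 and 64.2 CPM in IDH2 KO females, and 259, 281 and 303 CPM in WT males against 159, 155, 123.3 and 115 CPM in WT females. Males lay above females in both genotypes with no overlap (log2 fold change 1.06, SE 0.21, adjusted p = 0.0133 in edgeR's quasi-likelihood test (Benjamini-Hochberg)).

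**Figure D5:**
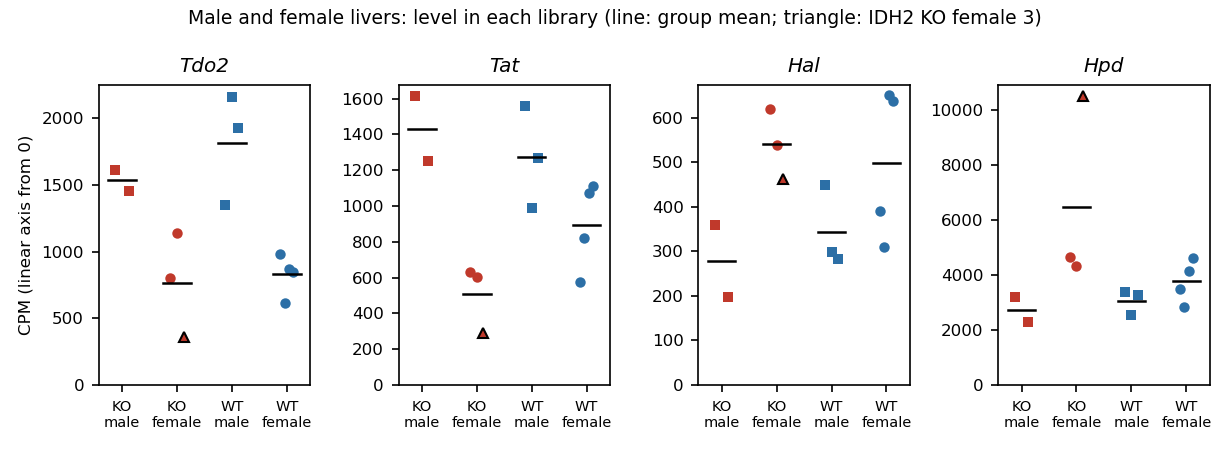
Level in each library (CPM, vertical, linear axis from 0) of *Tdo2*, *Tat*, *Hal* and *Hpd* in male and female livers of each genotype, with lines at group means and a triangle for IDH2 KO female 3. Males lie above females in both genotypes for *Tdo2*, with 1349.5 to 2162 CPM in WT males and 617 to 984 CPM in WT females.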

How the data were processed

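Liver RNA of 5 IDH2 KO and 7 WT mice was sequenced as single-end reads of 50 bases after TruSeq library preparation. The authors deposited 1 unfiltered table of raw counts of reads per gene, which was used, and 1 filtered part of it, and their processing notes list FastQC and GRCm38.p5. Which aligner and counter made the counts is not given in the sources used here. All 12 libraries entered, and each of the 13 pairs of libraries of the same genotype and sex differed by more than sampling noise. Since each mouse gave 1 library, p values rest on the spread between mice together with that between libraries, which cannot be told apart.

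The robust quasi-likelihood test of edgeR 4.0.16 in R 4.3.3 was applied with TMM scaling, with filterByExpr (counts of at least 10, total at least 15), with terms for sex and genotype, and with Benjamini-Hochberg adjustment over all genes tested (threshold 0.05). A fit with 4 group means on the same genes gave the contrasts within sexes, between WT sexes, and the interaction. Depth was between 15323300 and 25019649 reads. By sampling alone, a count of 0 over all libraries allows 3 reads, which is 0.0124 RPM. Since a 0 is not read as absence here, this is no upper bound for the 5 genes at 0. Coordinates, lengths and GC content, of the longest protein-coding transcript, are those of GENCODE M21 on GRCm38, and transcript numbers those of a RefSeq table. Scripts were tested on simulated data.

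Values of every library are given for genes past the adjusted threshold, for those with an unadjusted p under 0.05 between genotypes, in the interaction or between WT sexes, and for the gene of smallest p and of highest mean CPM in each amino acid group. *Tat*, *Hao1* and *Qprt* were added after their values were seen, as were the ranges given for *Gcat* and *Aspg*. The genes and lists were chosen with earlier results of these data known. The alternatives were RLE and no scaling, no filter, the authors' filtered genes, counts without mitochondrial transcripts, sizes computed without the 10 most abundant genes, no sex term, DESeq2 1.42.0, limma 3.58.1 on log2 RPM with 1 or 0.5 added, a replicate block, and leaving out each library in turn. The sex term over both genotypes was added after seeing the data. Figures were drawn in matplotlib 3.10.9 (Python 3.11.15).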

Additional observations from a re-analysis of the deposited data

Results flagged for a closer look

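A library that lay far from the rest of its genotype was found in 14 of 78 pairs of gene and genotype (Dixon's test at its 95% critical value). The pairs share the same 12 libraries and are not independent. The test was not run over all genes, so no expected rate is set beside this count. Of the 14, 10 fell in IDH2 KO female 3. There, 44.98% of the 5829 tested genes with an annotated transcript deviated from the WT mean by over 1 on the log2 scale. High in that library were *Hpd* (10529.9 CPM), *Gnmt* (3665 CPM), *Fah* (2021 CPM), *Haao* (715 CPM), *Hgd* (444 CPM), *Prodh* (73.0 CPM) and *Prodh2* (8.87 CPM). Low in it were *Hibch* (37.4 CPM), *Ivd* (6.66 CPM) and *Acadsb* (3.40 CPM). The other 4 were *Arg1* in IDH2 KO male 1 (2095 CPM, the next IDH2 KO library being at 1237 CPM), *Bhmt* in IDH2 KO female 2 (3274 CPM, next 1948 CPM), *Ftcd* in WT male 2 (4.48 CPM, next 1.58 CPM) and *Pccb* in WT female 4 (0.929 CPM, next 0.593 CPM), all of them high.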

How the results depend on the processing

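None of the 39 genes was called in IDH2 KO against WT under any of the alternatives, nor within either sex or in the interaction under those run there. The number of all genes called, 29, was 205 with no filter, 64 in DESeq2, 10 with the replicate block and 19 (without IDH2 KO female 1) to 33 (without IDH2 KO female 3) with a library left out. The labels do not say whether equal replicate numbers mark paired mice. Correlations of same-numbered deviations lay between −0.183 and 0.0835, and so few values cannot decide it. Near 0, the log2 fold change of *Hal* (−0.05) was 0.0134 with no sex term and 0.00894 with the replicate block. With a library left out, 19 of the 39 log2 fold changes turned their sign at least once, 12 of them without IDH2 KO female 3. Among the 13 genes named by rule, the ranges that crossed 0 were −0.16 to 0.10 for *Hal*, −0.19 to 0.15 for *Gldc*, −0.12 to 0.12 for *Hibch*, −0.38 to 0.0222 for *Tdo2* and −0.27 to 0.0229 for *Ass1*. In male against female WT livers 1 of the genes (*Tdo2*) was called with no filter, and 0 to 1 with a library left out, the 1 being *Tdo2* without IDH2 KO female 3. Over both genotypes 2 were called with no filter and 2 in DESeq2 (*Tdo2* and *Tat*), and 0 to 2 with a library left out, again both without IDH2 KO female 3. Low read numbers limit *Ftcd*, *Kynu*, *Pcca*, *Pccb*, *Bckdha* and *Bckdhb*, with 113 to 754 reads in all. Whether depth or the counting of reads that fit several transcripts made them low was not tested. In males the comparison rests on 2 IDH2 KO livers.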
